A study of Sus scrofa domesticus with 4 samples.

Results

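CDC20, CCNB1, TOP2A, SPAG5 and CDK1 are genes of mitosis and cell proliferation. They were followed here in pig anterior pituitary cells cultured with and without adiponectin, a hormone released by fat tissue. Every probe whose RefSeq accession belongs to 1 of these 5 genes, out of 2459 genes that could be named, was taken, which gave 8 of the 43603 probes on the array. CDC20, CCNB1 and TOP2A had 1 probe each, CDK1 had 2 and SPAG5 had 3. The genes were chosen by their treated over control ratios in an earlier analysis of these arrays, in which they had lower values in treated cells. Their treated over control ratios are therefore given as a description, without a test.

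The cells came from the anterior lobes of 4 mature gilts, Large White x Polish Landrace, 7 to 8 months old. Per the labels' protocols the gilts were on days 10 to 12 of the oestrous cycle, although another label calls these days a period of pregnancy. The dispersed cells of the whole lobe attached for 48 h. Treated cultures then received recombinant human adiponectin at 10 µg/ml for 24 h in serum-free medium containing bacitracin. Control cultures had the same medium without adiponectin. Each of 4 arrays received both RNAs in different dyes. Per the channel labels the treated RNA was Cy5-labelled (red) on arrays 1 and 3, and Cy3-labelled (green) on the other two. The labels do not tie arrays to gilts, so the spread given here is that between 4 arrays, which may be technical.

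Mitosis is started by CDK1, a kinase that is active when bound to a cyclin such as cyclin B1, the product of CCNB1. TOP2A, a topoisomerase, separates entangled DNA so that chromosomes can condense and part, and SPAG5, also called astrin, is needed for an ordered spindle. CDC20 then activates the anaphase-promoting complex, which marks cyclin B1 and securin for destruction and so ends mitosis. Most hormone cells of an adult pituitary divide rarely, so transcripts of this kind in a culture come from whichever of its cells are cycling. In RNA from mixed cells, fewer cycling cells and less RNA per cell cannot be told apart.

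The scanner software marked 25081 to 29704 probes of a channel as well above background, and 25912 probes entered the fit. Of 7 hormone genes of the lobe, GH1, PRL, POMC, LHB, FSHB and TSHB were among them, and CGA was not. Over all tested probes, ratios of arrays that shared an orientation had a mean correlation of 0.41 (2 pairs), whereas those of arrays with swapped dyes had one of -0.46 (4 pairs). The fit has a dye term beside the adiponectin term. The wording of the labelling protocol differs from the channel labels and puts treated RNA in Cy5 on every array. That reading is given beside each gene.

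Of the 8 probes, 7 were well above background in both channels on 4 of 4 arrays. The faintest probe of SPAG5 (A_72_P245902) was well above background in treated cells on 1 of 4 arrays and in control cells on 0 of 4. It did not enter the fit, and no ratio is given for it. The fitted log2 ratio was below 0 for 7 of the 7 tested probes, where 49.3% of all tested probes lay below 0. With each array centred on its median in place of loess, 6 of the 7 lay below 0, and 34.1% of all probes. Without array 4 the count was 4 of 7, as the second SPAG5 probe and both CDK1 probes turned positive. The ratio was below 0 on each of the 4 arrays for 3 of the 7, against 2.84% of all tested probes. Both counts use the contrast from which the genes were chosen. At an adjusted p under 0.05 in the limma fit, 0 of the 7 were called, and the share called over all probes was 0%. With 1 array left out the number called over all probes was not always 0. Such a fit leaves 1 array alone in its orientation, which is fitted exactly and adds nothing to the error. These counts are therefore not read as treatment calls.

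CDC20, the activator of the anaphase-promoting complex, had the lowest fitted ratio of the 5 genes. Its normalized log2 intensity in control cells was 9.97, 9.96, 9.23 and 9.10 on arrays 1 to 4, and in treated cells it was 9.90, 9.65, 9.12 and 8.88. On each array the treated value was the lower one, but the groups overlapped, as the arrays differed from each other by more than treated from control cells. The log2 ratios of treated over control were -0.07, -0.30, -0.11 and -0.22, with a mean of -0.18 ± 0.11 (SD, n = 4). The fitted ratio was -0.18 ± 0.06 (SE), or 0.885-fold. With treated RNA taken as Cy5 throughout, it was 0.086.

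**Figure D1:**
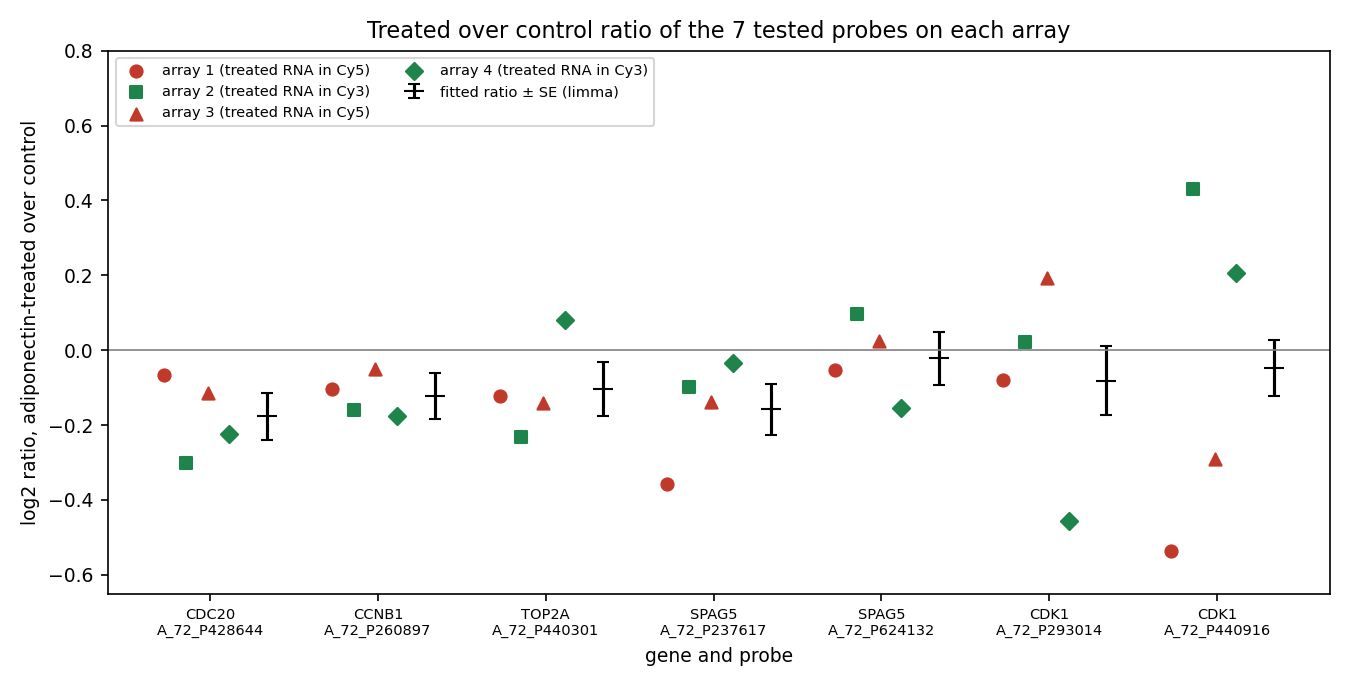
Log2 ratio of adiponectin-treated over control cells (y axis) for the 7 tested probes of the 5 genes (x axis), 1 point per array with the colour giving the dye of the treated RNA, and the fitted ratio with its SE in black. The points of CDC20, CCNB1 and the brightest SPAG5 probe all lie below 0, and those of the second CDK1 probe (A_72_P440916) split by dye.

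The kinase and its cyclin differed in how well their arrays agreed. CCNB1 had log2 intensities of 12.41, 12.56, 11.70 and 11.73 in control cells and 12.30, 12.40, 11.65 and 11.56 in treated cells on arrays 1 to 4. The treated value was lower on each array, with ratios of -0.10, -0.16, -0.05 and -0.18 and a mean of -0.12 ± 0.06 (SD, n = 4). This was the smallest spread among the 7 probes. The fitted ratio was -0.12 ± 0.06 (SE), or 0.919-fold, and 0.045 with treated RNA taken as Cy5 throughout.

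CDK1 was measured by 2 probes of 1 accession, which did not show the same sign on all arrays. The brighter probe (A_72_P293014) had control intensities of 12.15, 12.41, 11.42 and 11.55 and treated intensities of 12.07, 12.43, 11.61 and 11.09. Its ratios were -0.08, 0.02, 0.19 and -0.46, with a mean of -0.08 ± 0.27 (SD, n = 4), so array 4 lay low and array 3 high. The second probe (A_72_P440916) had ratios of -0.54, 0.43, -0.29 and 0.21, with a mean of -0.05 ± 0.44 (SD, n = 4). Its ratio was negative on both arrays with treated RNA in Cy5 and positive on both with treated RNA in Cy3. The fitted ratios were -0.08 ± 0.09 and -0.05 ± 0.07 (SE), both nearer 0 than the spread of the arrays. Without array 4 the fitted ratios were 0.04 and 0.01, and without array 2 they were -0.20 and -0.10. With median centring the second probe had 0.02. With treated RNA taken as Cy5 throughout, the probes had opposite signs, at 0.14 and -0.37.

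TOP2A, the topoisomerase, had control intensities of 11.17, 11.15, 10.31 and 9.96 and treated intensities of 11.05, 10.92, 10.17 and 10.04. The treated value was lower on arrays 1 to 3 and higher on array 4, with ratios of -0.12, -0.23, -0.14 and 0.08 and a mean of -0.10 ± 0.13 (SD, n = 4). The fitted ratio was -0.10 ± 0.07 (SE), or 0.931-fold. It was -0.03 without array 2 and -0.18 without array 4, so its size rested on single arrays. With treated RNA taken as Cy5 throughout it was -0.03.

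SPAG5, the spindle gene, had control intensities of 9.96, 10.13, 9.33 and 9.31 and treated intensities of 9.61, 10.03, 9.19 and 9.28 at its brightest probe (A_72_P237617). Its ratios were -0.36, -0.10, -0.14 and -0.03, with a mean of -0.16 ± 0.14 (SD, n = 4), so all 4 were below 0 and array 1 was the lowest. The fitted ratio was -0.16 ± 0.07 (SE), or 0.897-fold, and -0.10 without array 1. The second probe of SPAG5 (A_72_P624132) had ratios of -0.05, 0.10, 0.02 and -0.15, with a mean of -0.02 ± 0.11 (SD, n = 4). Its fitted ratio was -0.02 ± 0.07 (SE), and 0.04 without array 4, so the lower value of the brightest probe was not seen with it. With treated RNA taken as Cy5 throughout, the values were -0.09 and 0.01.

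The median fitted ratio of the 5 genes, each by its brightest probe, was -0.12, and the median of all 25912 tested probes was 0.001. The middle 90% of all probes lay between -0.13 and 0.11. CDC20 and SPAG5 lay below that range, and CCNB1, TOP2A and CDK1 within it. The second SPAG5 probe also lay within it, at -0.02. With median centring all 5 genes lay nearer 0, at -0.127 for CDC20, -0.109 for SPAG5, -0.054 for CCNB1, -0.043 for TOP2A and -0.014 for CDK1. The median of all probes was then 0.031. These positions describe genes that were picked for low ratios.

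**Figure D2:**
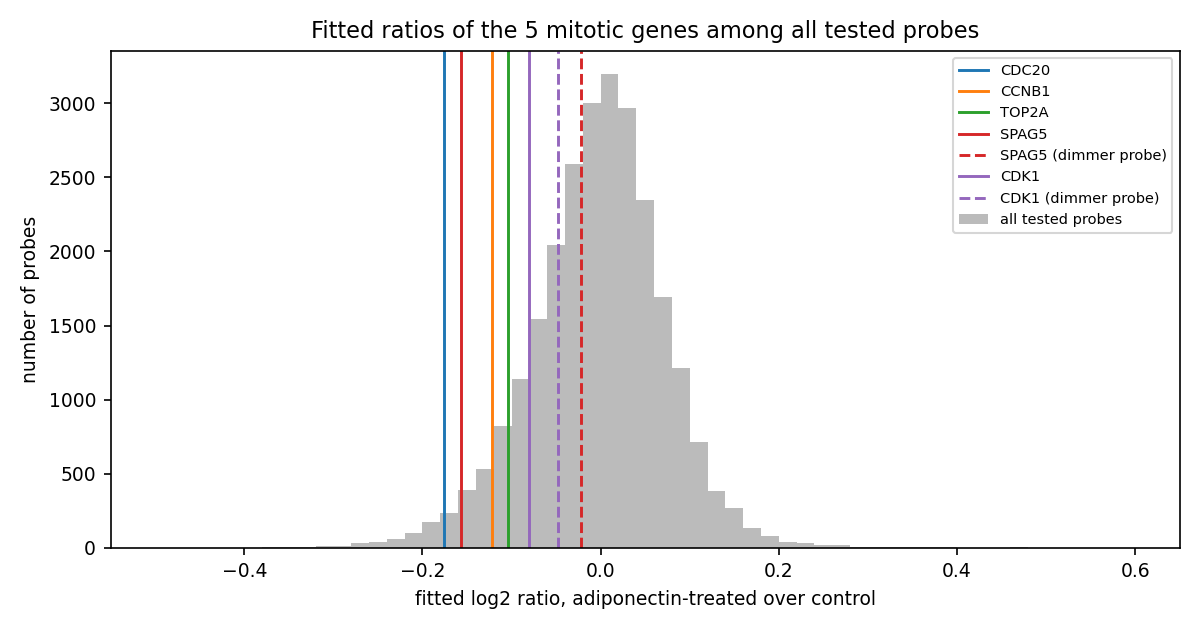
Histogram of the fitted log2 ratio (x axis) over all tested probes (y axis, number of probes), with a line for each of the 7 tested probes of the 5 genes, dashed for the dimmer probes of SPAG5 and CDK1. All 7 lines lie below 0, and those of CDC20 (-0.18) and the brightest SPAG5 probe (-0.16) lie in the lower tail.

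If the channel labels hold, the dye term compares Cy5 with Cy3 whatever the treatment, and it was not used to choose the genes. The values given beside each gene with treated RNA taken as Cy5 throughout are this same term. In that reading the dye term would stand for the treatment, so those values are not separate results. In the limma fit it was called at an adjusted p under 0.05 for 1 of the 7 probes and for 6.19% of all tested probes (1.91% higher and 4.28% lower in Cy5). The called probe was the second probe of CDK1, which was brighter in Cy3 on 4 of 4 arrays (dye term -0.37 ± 0.07, SE, limma adjusted p = 0.0308). The brighter CDK1 probe had a dye term of 0.14 ± 0.09 (limma adjusted p = 0.38). For CDC20, CCNB1 and TOP2A the dye terms were 0.09, 0.05 and -0.03, and for the SPAG5 probes -0.09 and 0.01. None of these 5 was called.

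The level of these genes differed between arrays by more than the fitted ratios of treated over control cells. The level of an array is taken as the mean of both channels, after scaling the arrays to a common distribution, and was looked at after the values had been seen. From the lowest to the highest array it spanned 0.94 (log2) for CDC20, 0.84 for CCNB1, 1.11 for TOP2A, 0.82 for SPAG5 and 1.11 for CDK1 at their brightest probes. These spans amount to 1.77-fold to 2.16-fold. The median span of all tested probes was 0.34, and 7.61% of probes spanned at least as much as SPAG5, the lowest of the 5.

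The arrays also fell in nearly the same order for the 5 genes. For 7 of the 7 tested probes arrays 1 and 2 were both above arrays 3 and 4, an order shown by 28.5% of all tested probes with 4 values, and the opposite order was shown by 22.3%. It held in the treated channel alone for 7 of 7 probes and in the control channel alone for 7 of 7. Both channel values come from the level and ratio of the same spot, so these counts largely repeat the order of the level. No share over all probes is given for a single channel. The second CDK1 probe, with its large dye term, spanned 1.09 in the same order as the first. The second SPAG5 probe also had this order but spanned 0.50, less than any of the brightest probes. The dye orientation pairs array 1 with array 3. The cause of the level order was not tested. Without scaling between arrays the median span of the 5 genes was 0.69, that of all probes was 0.47, and 6 of 7 probes kept the order, against 4.31% of all probes.

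**Figure D3:**
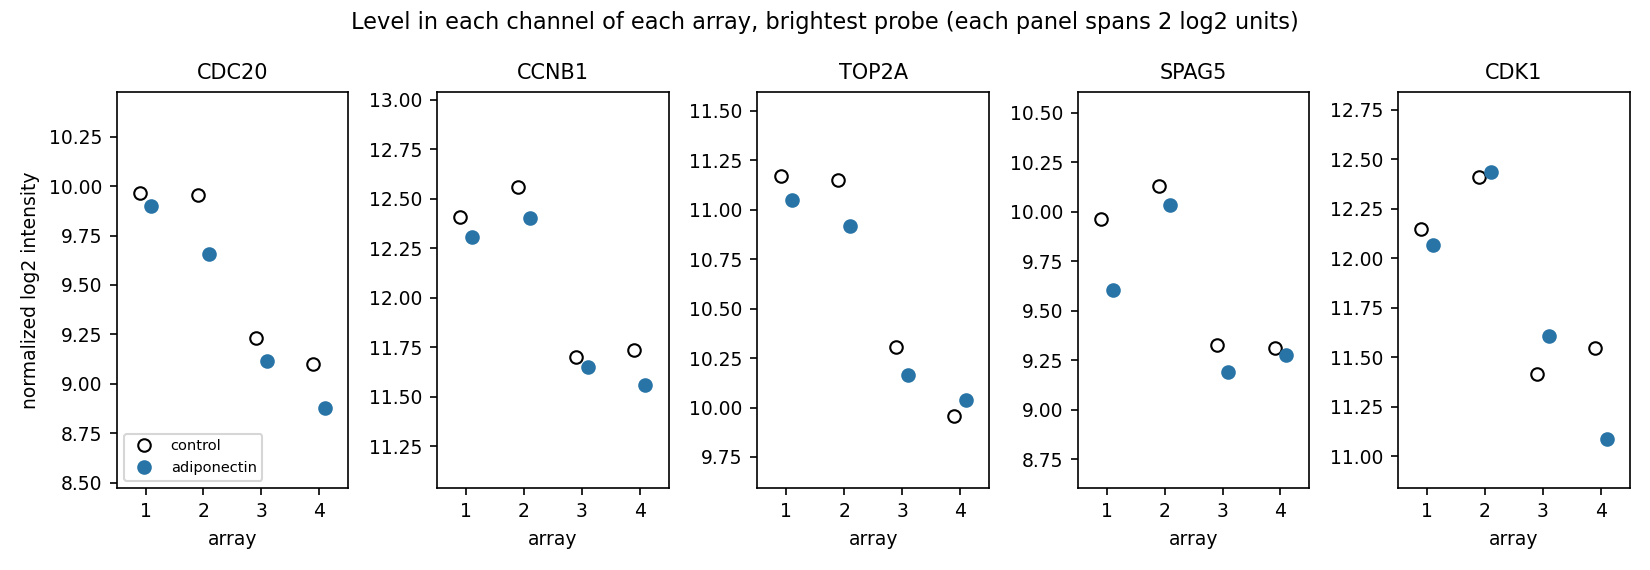
Normalized log2 intensity (y axis) of the brightest probe of each gene in control cells (open) and adiponectin-treated cells (filled) on arrays 1 to 4 (x axis), with each panel spanning 2 log2 units. In all 5 panels both channels of arrays 1 and 2 lie above both channels of arrays 3 and 4. The widest step between treated and control cells of 1 array is that of CDK1 on array 4 (log2 ratio -0.46).

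Of the other genes of the cell cycle, 149 were listed in 4 groups, and 22 of them had a named probe and were tested. None of the 22 passed the limma test in either direction at an adjusted p under 0.05 (0 of 22 also had an unadjusted p under 0.05), and over all probes 0 were called and 715 (2.76%) had an unadjusted p under 0.05, 1.72% lower and 1.04% higher in treated cells. Fitted ratios were below 0 for 16 and above 0 for 6, with a median of -0.03, where 49.3% of all tested probes lay below 0. The signs depended on the normalization. With median centring MYC, BTG1, GADD45A, BTG2, CDKN1B, MDM2, CCNG1 and CDKN2B lay above 0 instead, and 34.1% of all probes lay below 0.

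In the list of mitotic entry and spindle genes, 5 of the 7 tested had ratios below 0 (median -0.03). CCNB2, the second B-type cyclin, had the lowest at -0.11 ± 0.07 (SE), with -0.13, 0.03, -0.16 and -0.17 on arrays 1 to 4. It was thus below 0 on 3 arrays. BIRC5, which encodes survivin, had -0.08 ± 0.07, and the spindle kinase gene AURKA had -0.06 ± 0.06. PKMYT1, an inhibitory kinase of CDK1, had -0.03, and CDC25C, the phosphatase that activates CDK1, had -0.01. AURKB, the kinase of the chromosomal passenger complex, and STMN1, a regulator of microtubules, both had 0.04. The brightest probes of AURKB and STMN1 had the highest ratios among the probes of their genes, whose lowest were -0.07 and -0.14.

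Levels of these 7 genes also differed between arrays, with arrays 1 and 2 above arrays 3 and 4 for 7 of 7. Of all tested probes with values on 4 arrays, 28.5% had this order. It was looked for after it had been seen in the mitotic genes, and was not checked here without scaling between arrays. Some margins were small. Relative to its own mean, AURKB had 0.0003 on array 1 and -0.04 on arrays 3 and 4. The spans were 0.75 for CCNB2, 0.70 for AURKA, 0.69 for BIRC5, 0.44 for CDC25C and 0.30 for STMN1. They were 0.13 for AURKB and 0.12 for PKMYT1, below the median of all probes.

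In the list of G1 and S phase genes, 2 of the 5 tested lay below 0 (median 0.03). CDK4, a kinase of G1, had -0.08 ± 0.09 (SE) and MYC, a growth-promoting transcription factor, -0.07 ± 0.07. MCM3, a subunit of the replicative helicase, had 0.03, and the D-type cyclin genes CCND2 and CCND3 had 0.07 and 0.10. The level order of the mitotic genes was shown by MCM3 and MYC and not by CDK4, CCND2 or CCND3. Of all tested probes, 28.5% showed it. FZR1, the other activator of the anaphase-promoting complex, was the only tested gene of its list, at 0.01 ± 0.08, and did not show that order.

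For the 9 CDK inhibitors and genes of the damage response given here, ratios ran from -0.13 to -0.01 (median -0.03). ATM and CHEK2, kinases of the DNA damage response, had -0.13 ± 0.07 and -0.11 ± 0.06 (SE). These probes had the lowest ratios among the 6 and 3 tested probes of their genes, whose highest were 0.08 and 0.02. The mean over the tested probes was -0.04 for either gene. For BTG2 and CCNG1 the brightest probe was instead the highest, and the lowest were -0.16 and -0.11. The anti-proliferative genes BTG1 and BTG2 had -0.06 and -0.03, GADD45A had -0.05, and the inhibitor genes CDKN1B and CDKN2B had -0.02 and -0.01. MDM2, a ubiquitin ligase, and CCNG1, the gene of cyclin G1, had -0.02 and -0.01. With median centring ATM and CHEK2 both had -0.08, and the other genes of this list lay above 0. The level order of the mitotic genes was shown by 4 of the 9 (MDM2, CCNG1, BTG1 and CHEK2), and the opposite order by 3. Over all tested probes these shares were 28.5% and 22.3%. Over all 4 lists the dye term was called for 2 of 22 genes, CDC25C and BTG2, beside 6.19% of all tested probes. BTG2 lay close to the threshold (limma adjusted p = 0.0493).

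**Figure D4:**
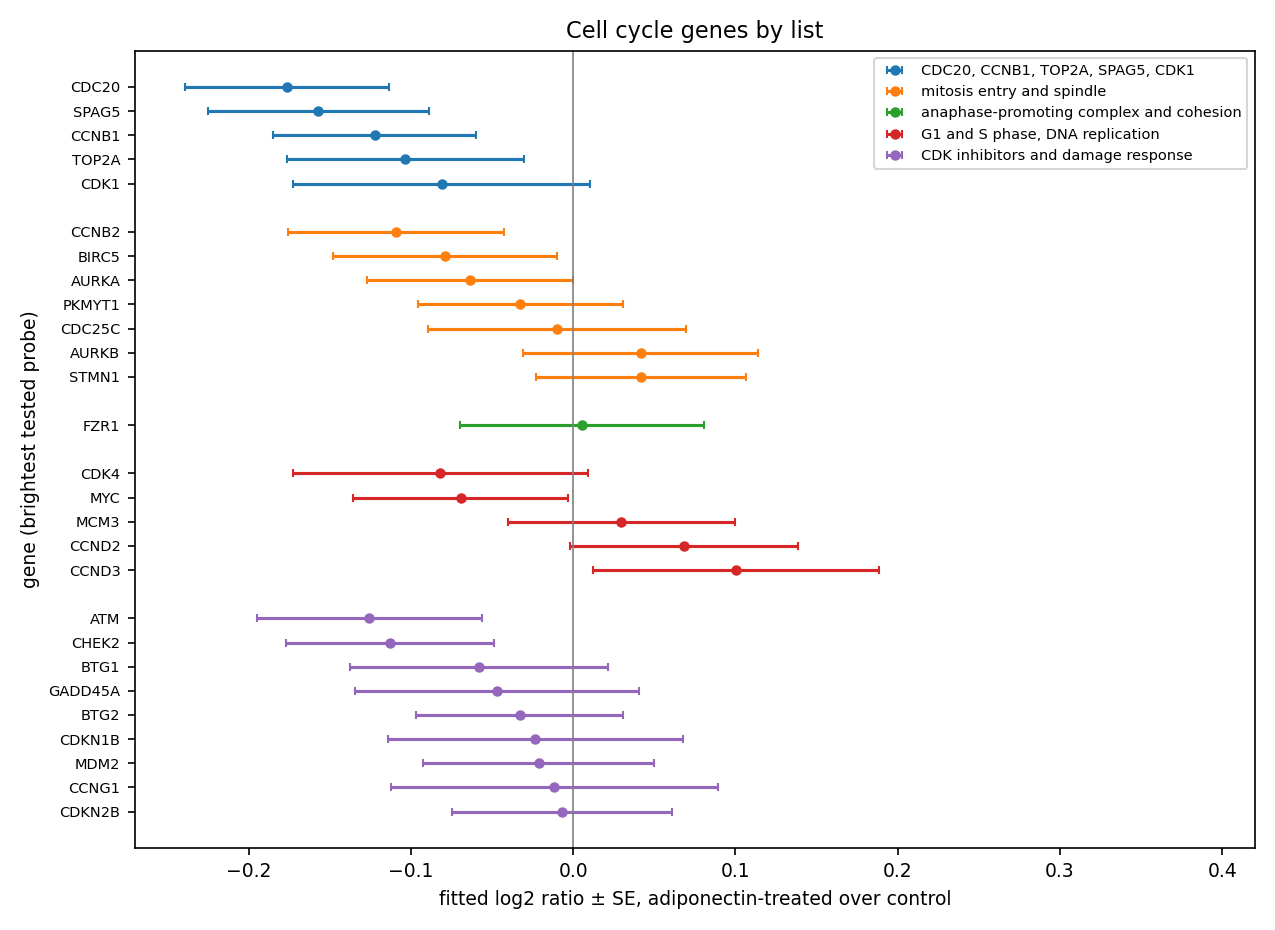
Fitted log2 ratio of adiponectin-treated over control cells with its SE (x axis) for the 5 genes and the 22 tested genes of 4 cell cycle lists (y axis, by list, brightest tested probe). The 5 genes lie between -0.18 and -0.08, and the other lists lie on both sides of 0, from ATM at -0.13 to CCND3 at 0.10.

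Among 1843 other genes with values on 4 arrays, those nearest to the mean profile of the 5 genes (-0.15, -0.15, -0.05 and -0.16 on arrays 1 to 4) were RPS3A, BLOC1S6, FITM1, CD274 and SLC30A1. Their distances (Euclidean, over the 4 ratios) ran from 0.081 to 0.138. CCNB1 lay at 0.044, nearer than any of these, and CDC20 at 0.189. TOP2A and SPAG5 lay at 0.271 and 0.269, and CDK1 at 0.425, with 835 other genes nearer to the mean than it. By this distance the 5 genes did not all lie close to their mean. The ratios keep their dye differences and rest on 1 probe per gene. Differing patterns and the noise of probes therefore cannot be told apart.

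By level, few other genes lay nearer to the mean of the 5 genes than they did. The distances themselves were 0.17 for CDC20, 0.08 for CCNB1, 0.22 for TOP2A, 0.23 for SPAG5 and 0.16 for CDK1. For CCNB1 this was farther than by ratio. Each gene is also part of the mean it is set against. The mean level of the 5, relative to each gene's own mean, was 0.35, 0.45, -0.34 and -0.46 on arrays 1 to 4. Few probes span as much as that, which limits how many can lie near it. At most 24 of 1882 other genes lay nearer to that profile than 1 of the 5. The nearest was CDKN3, a phosphatase that acts on CDK proteins, with 0.35, 0.42, -0.31 and -0.45. DBF4, the regulatory subunit of the CDC7 kinase, was second with 0.30, 0.47, -0.28 and -0.49. ADGRE5, TXNIP and KLF4 followed. These 5 were looked up after the levels had been seen. The fitted treated over control ratios of CDKN3 and DBF4 were -0.11 and -0.15, those of ADGRE5 and KLF4 -0.03 and -0.09, and that of TXNIP 0.01.

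Markers of 8 cell types or tissues were set beside these values. Of 24 tested marker genes, 0 were called in the adiponectin term by limma (0 also had an unadjusted p under 0.05), with fitted ratios from -0.15 (LHB) to 0.10 (SOX2). Arrays 1 and 2 were both above arrays 3 and 4 for 7 of the 24 and both below them for 7, beside the 28.5% and 22.3% of all probes given above. The first 7 were the endothelial genes PECAM1 and CDH5, the hormone genes PRL and GH1, OXT, MBP and ANXA1. The opposite 7 were FSHB, TSHB, SOX2, CD14, C1QA, DCN and ACTA2. The widest level spans of all markers were 2.10 for FSHB, 1.86 for CDH5 and 1.78 for LHB, and LHB took neither order. The third endothelial gene, ENG, spanned 0.75 and also took neither order. The summed intensity of the 3 endothelial genes ran from 524 to 1316 in treated and from 532 to 1477 in control cells over the arrays. Of the 3 macrophage genes 2 had the opposite order, as did both fibroblast or pericyte genes, and the 2 lymphocyte genes had neither. The part of these cell types in the levels of the mitotic genes was not tested.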

How the data were processed

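Two-channel arrays of adiponectin-treated and control pituitary cells were scanned with Agilent Feature Extraction 10.7.3.1, per the file headers. The deposited files give each spot's linear intensity (median signal and median background of either channel) and a log10 ratio, red over green. The authors' own normalized log2 ratio per probe, in the series matrix, lay within 0.01 of the scanner's processed log2 ratio, turned to treated over control, for 99.9% of probes on each array.

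Spots with an uneven local background (939 to 1350 of 43803 per array) or an outlier flag were left out, none of them from the 5 genes. Background was corrected with normexp (offset 50) on the median signal, since the mean signal that had been planned is not used here, ratios were normalized by loess within arrays, and levels with Aquantile between arrays. Tested probes had at least 3 values and were well above background in treated or in control cells on at least 3 arrays. No spot was saturated. The offset draws ratios of dim probes towards 0.

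limma 3.58.1 (R 4.3.3) fitted a dye and an adiponectin term (eBayes; two-sided; Benjamini-Hochberg adjusted over the tested probes). The script was tested on simulated ratios. For each gene the brightest tested probe stands. Symbols came by accession from RefSeq annotation of Sscrofa11.1 (5578 of 43603 probes matched). All genes of lists with at most 12 tested are named, except 1 listed gene that is not reported here and is outside the list counts, with the 5 nearest in pattern. The genes and lists were chosen with earlier results of these data known. All 4 arrays share 1 slide, and their number limits the precision.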

Additional observations from a re-analysis of the deposited data

Results flagged for a closer look

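Among 43 sets of 4 array values (ratios and levels of the 8 probes and ratios of the other genes named), 4 had a single array standing well apart. For 4 independent values from 1 normal distribution about 1 in 20 would be flagged, or 2.15. These sets are not of that kind, as the dye orientation alternates and some sets come from the same probe. The number 2.15 is therefore only a rough guide. FZR1 had a ratio of -0.25 on array 2, with 0.07 to 0.11 on the others. CCND2 had 0.26 on array 3, with -0.01 to 0.03 on the others. On array 4, BTG1 had -0.35 (others -0.001 to 0.06) and CDKN1B had -0.40 (others 0.07 to 0.14). No ratio or level of the 5 mitotic genes stood apart in this way.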

How the results depend on the processing

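The fitted ratios of CDC20, CCNB1, TOP2A, SPAG5 and CDK1 stayed below 0 in 10 of 10 planned settings that kept the channel labels and 4 arrays. Not all of these settings could change the ratios. Dropping the dye term or changing the probe filter returned the same values. So did the mean over tested probes for CDC20, CCNB1 and TOP2A, with 1 probe each. Log ratios of the scanner and of the series matrix gave nearly identical values for the 5 genes. The ratios of all 5 genes were nearer 0 with median centring, at -0.13 for CDC20, -0.054 for CCNB1, -0.043 for TOP2A, -0.11 for SPAG5 and -0.014 for CDK1. With spots of uneven background kept CDC20 had -0.13. With median centring 34.1% of all probes lay below 0. If Cy5 is read as treated throughout, CDC20 had 0.086, CCNB1 0.045 and CDK1 0.14, and 2331 probes were called in that term. With the mean of its tested probes SPAG5 had -0.09. With 1 array left out CDC20 ran from -0.20 to -0.16, CCNB1 from -0.14 to -0.11, TOP2A from -0.18 to -0.03, SPAG5 from -0.21 to -0.10 and CDK1 from -0.20 to 0.04. The count in the adiponectin term was 0 in all other settings with 4 arrays and with 1 array left out ran from 0 (without array 1) to 828 (without array 4). The count in the dye term (1605) was 0 with median centring, 30 with log ratios computed by the scanner, 41 with those of the series matrix and 841 with uneven background kept, and ran from 63 (without array 1) to 6061 (without array 2) with 1 array left out. The cause was not tested. The median level span of the 5 genes ran from 0.69 to 1.02 over 5 settings chosen after seeing the data. That of all probes ran from 0.37 to 0.63 over the same settings. The 0.63 came with processed signals of the scanner, where the 5 genes had 0.88. Of 401 values of other genes, 374 moved by less than the residual SD, although some signs changed, as with median centring above. Many of the 401 could not move that far, so the count does not measure stability. Leaving out 1 array shifts a ratio by less than the residual SD by construction. CDKN1B ran from -0.16 to 0.11 in this way without counting as moved. Dropping the dye term or changing the probe filter returned the same values. No paired analysis was possible because the arrays form 1 group; each array already pairs treated with control RNA.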
